A study of Homo sapiens with 6 samples.

Results

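DNA replication and S phase genes were examined as a group of 42 named genes. A gene was taken when its symbol in the authors' deposited tables equalled 1 of the 42 names, and all 42 were found among 33095 genes listed in each table. The symbol match gave 43 entries, because POLA2 occurs under 2 gene identifiers. RNA was sequenced from MM.1S, an established human myeloma line; myeloma is a malignancy of plasma cells, which secrete antibodies. The cells were transduced with lentivirus carrying a scramble control hairpin, a short hairpin RNA (shRNA 1) against IRF3, or a different one (shRNA 2) against IRF3. IRF3 is a transcription factor of the response to foreign nucleic acids. All 3 groups are transduced cells of the same line, each with 2 poly(A)-selected libraries, and untransduced cells were not analysed here. The labels give no time after transduction, no selection step, and no statement that the libraries of a group came from separate cultures. No p-value here therefore rests on more than the spread between libraries of the same group, which may be technical. Every gene has the same mean in both of the authors' deposited tables, as when all 6 libraries are fitted together. The spread estimated for a gene is then pooled over the 3 groups and shared by both comparisons. It may also draw on other genes, since the settings of the authors' fit are not given.

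DNA is copied once in each cell cycle. In G1 the origin recognition complex, CDC6 and CDT1 load the MCM2-7 helicase on DNA, and in S phase the kinase CDC7, CDC45 and the GINS complex switch it on. Polymerases alpha, delta and epsilon then copy the strands, with PCNA as the sliding clamp of delta and epsilon and RFC as the clamp's loader. Many of these genes are transcribed as cells approach S phase, under E2F transcription factors that the RB protein family holds back. In bulk RNA, fewer cells in S phase and less of each RNA per cell cannot be told apart.

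Values of single libraries are not in the tables, so neither the overlap between libraries nor the depth of each library can be given. Group means given here were reconstructed from the mean normalised read count and both fold changes of the authors' deposited tables. In the authors' deposited tables the log2 fold change of IRF3 was -1.53 ± 0.10 (SE) with shRNA 1 and -0.18 ± 0.10 (SE) with shRNA 2, with DESeq2 adjusted p of 8.45e-46 and 0.181. The libraries labelled shRNA 2 thus have no detected fall of IRF3 mRNA, and directions for shRNA 2 below are those of libraries so labelled. Among 10 plasma cell markers all were present, with means from 1665 to 31453 normalised read counts in the authors' deposited tables. Their summed reconstructed means were 154188, 112553 and 101017 with scramble, shRNA 1 and shRNA 2. The markers did not all move together. TNFRSF17, IRF4, PRDM1, XBP1, POU2AF1, SLAMF7 and JCHAIN were called lower with both hairpins, and MZB1 with shRNA 2 alone. SDC1 was called higher with shRNA 1 (0.28) and CD38 higher with shRNA 2 (0.89). Of 19 markers of T, myeloid, fibroblast, epithelial and erythroid cells, 16 were listed (CD3D, COL3A1 and HBA1 were not), and their summed reconstructed means were 326, 386 and 256 normalised read counts with scramble, shRNA 1 and shRNA 2. The highest was HBB, with a mean of 144 in the authors' deposited tables. HBB was called lower with shRNA 2 (-0.85) and CD3E higher with shRNA 1 (1.35). The part of these transcripts in the results was not tested.

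Promoter sequence was read for 37 of the 42 genes from RefSeq (GRCh38.p14), as windows from 250 bases before to 50 bases after an annotated start. The E2F motif was searched on both strands as the 8 letters TTTGGCGC, TTTCCCGC, TTTCGCGC or TTTGCCGC, and overlapping matches were counted separately. At least 1 match lay in the windows of 22 of the 37 genes (59.5%). The same search found a match for 704 of 10937 genes that have a window and an adjusted p with shRNA 2 (6.44%), and in 3.31% of all 35116 windows. Of the 74 other replication genes described below, 60 have a window, and 15 of these (25%) had a match. The following stretches are shown because each carries at least 1 match, for 7 of these genes. MCM3 and UHRF1 each have a further match, at positions -4 and -14 from a start, that is not shown. Matches are in capitals and all else is in lower case, written 5' to 3' on the strand of the gene. None of the stretches overlaps an exon of GENCODE 29. Those of CDC7, HELLS and UHRF1 lie in introns of longer annotated transcripts, and the other 4 lie outside the annotated gene.
MCM6 promoter, chr2:135876497-135876620, minus strand: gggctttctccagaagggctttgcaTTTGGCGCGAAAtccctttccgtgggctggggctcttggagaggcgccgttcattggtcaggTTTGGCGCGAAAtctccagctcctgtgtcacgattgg
MCM3 promoter, chr6:52284884-52284941, minus strand: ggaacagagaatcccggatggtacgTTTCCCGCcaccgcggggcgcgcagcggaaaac
PCNA promoter, chr20:5126649-5126706, minus strand: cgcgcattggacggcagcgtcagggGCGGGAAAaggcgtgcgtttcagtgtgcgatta
CDC7 promoter, chr1:91501019-91501107, plus strand: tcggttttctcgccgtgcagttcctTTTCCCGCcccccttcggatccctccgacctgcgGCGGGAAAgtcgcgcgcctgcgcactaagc
HELLS promoter, chr10:94545687-94545787, plus strand: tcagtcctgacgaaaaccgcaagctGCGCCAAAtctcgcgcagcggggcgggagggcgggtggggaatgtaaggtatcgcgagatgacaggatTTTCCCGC
UHRF1 promoter, chr19:4909959-4910016, plus strand: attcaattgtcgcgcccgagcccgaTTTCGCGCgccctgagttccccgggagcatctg
POLA1 promoter, chrX:24693756-24693813, plus strand: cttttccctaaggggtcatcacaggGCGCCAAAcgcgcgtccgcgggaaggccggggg

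In the MCM6 promoter 4 matches formed 2 overlapping pairs, each reading the motif on both strands. The CCAAT box, the 5 letters CCAAT on either strand, was in the windows of 22 of the 37 genes (59.5%) against 43.0% of the genes with an adjusted p. It was as frequent in the other replication genes, at 37 of 60 (61.7%). The CHR hexamers of G2 and M phase promoters, TTTGAA or TTCGAA on either strand, were found for 3 of 37 genes (8.11%) against 15.8%. An interferon element, GAAANNGAAA on either strand, was found for 0 of 37 genes against 4.11%. In the other replication genes the CHR hexamers were found for 8 of 60 (13.3%) and the interferon element for 1 of 60 (1.67%). With shRNA 2 the 22 genes with an E2F match had a median log2 fold change of -1.85 and the 15 without one -1.78, from the authors' deposited table. With shRNA 1 the medians were -0.41 and -0.26, and 11 of 22 and 6 of 15 were called lower. A match is a string of letters in a window and not a shown binding site.

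All 42 genes fell in the libraries labelled shRNA 2, while 20 of 42 fell and 0 rose with shRNA 1. A gene was called at a DESeq2 adjusted p below 0.05 in the authors' deposited tables, and all 42 carried an adjusted p in both. With shRNA 2 the median log2 fold change of the 42 was -1.83, a ratio of 0.281 to scramble, and the values ran from -2.87 to -0.58 in the authors' deposited table. Of all 17054 genes with an adjusted p, 18.1% were called lower and 10.9% higher, and their median was 0.00. A fall of 1 or more on the log2 scale, to 0.5 times scramble or less, was called for 41 of 42 genes against 5.48% of all. A fall of 2 or more was called for 15 of the 42, and the share of all genes at that size was not computed. By size of log2 fold change, 29 of the 42 were among the 500 lowest genes of that table and 39 among the 1000 lowest. With shRNA 1 the median was -0.34, a ratio of 0.793, with values from -1.08 to 0.00. There 14.8% of all 14488 genes with an adjusted p were called lower and 9.8% higher, with a median of -0.03. At an unadjusted p below 0.05 in the DESeq2 test, 22 of the 42 were lower with shRNA 1 and 0 higher. The share of all genes at that unadjusted threshold was not computed, so this count has no background here. Both comparisons use the same 2 scramble libraries and are given side by side.

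**Figure D1:**
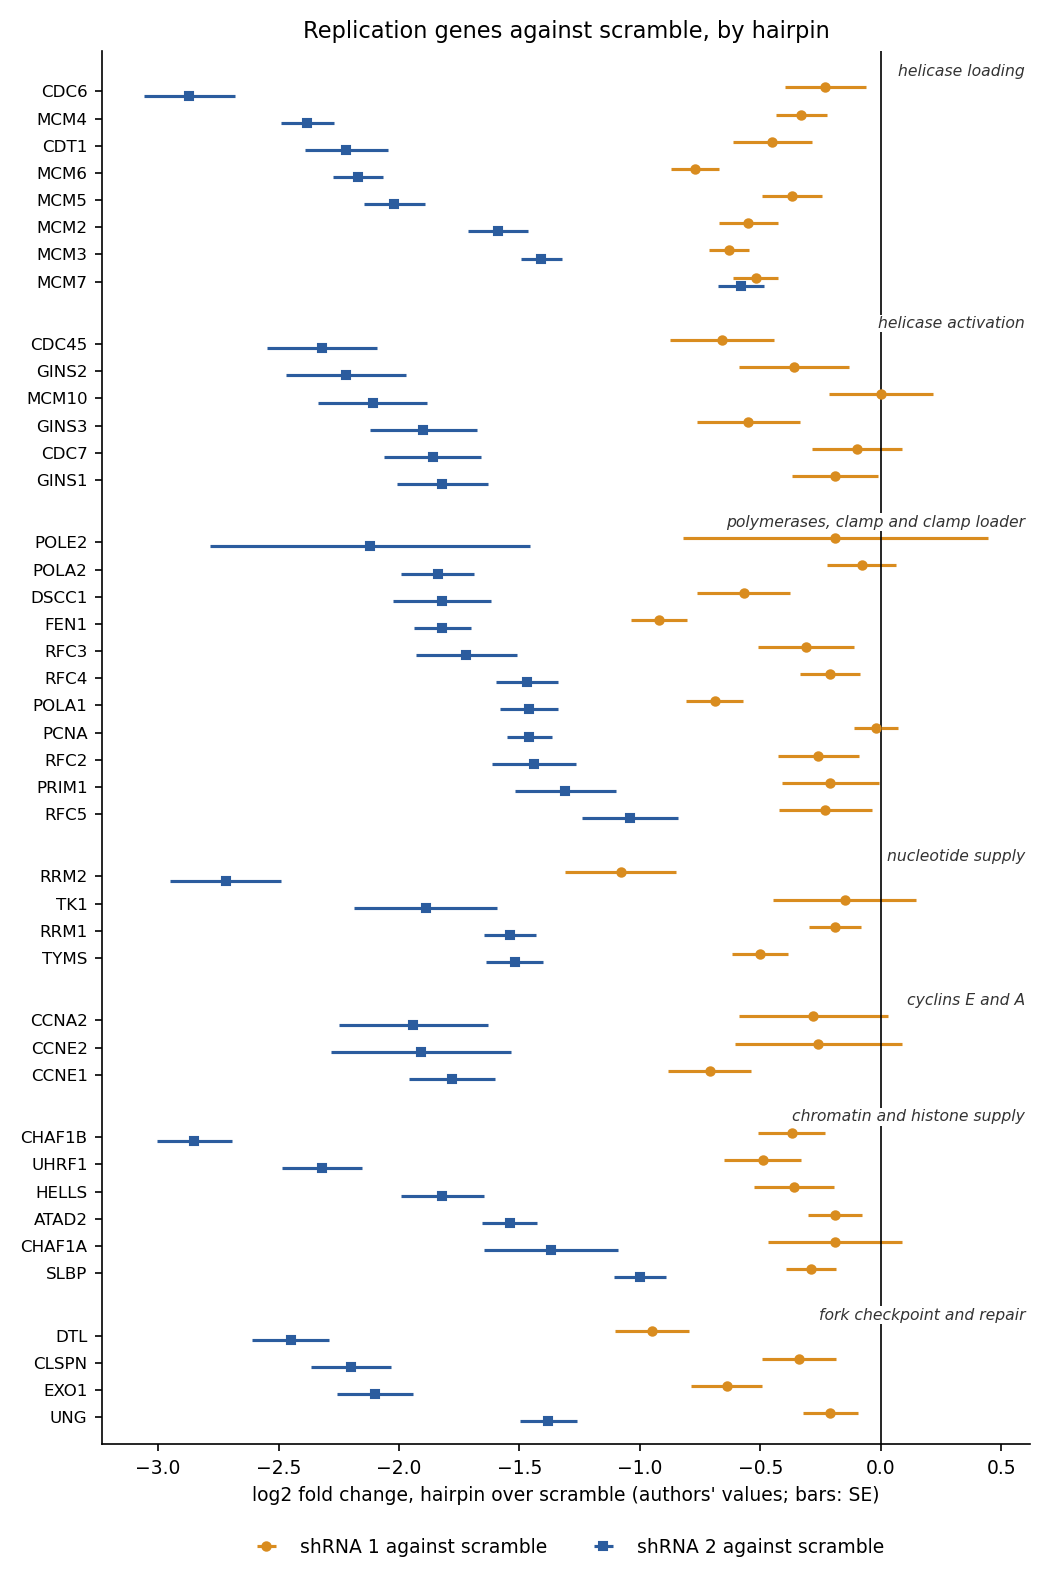
Log2 fold change of each of the 42 replication genes against scramble, in the authors' deposited tables, with shRNA 1 (circles) and shRNA 2 (squares), grouped by role; bars are SE. All squares lie left of 0, from -2.87 to -0.58, and the circles lie between -1.08 and 0.00.

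**Figure D2:**
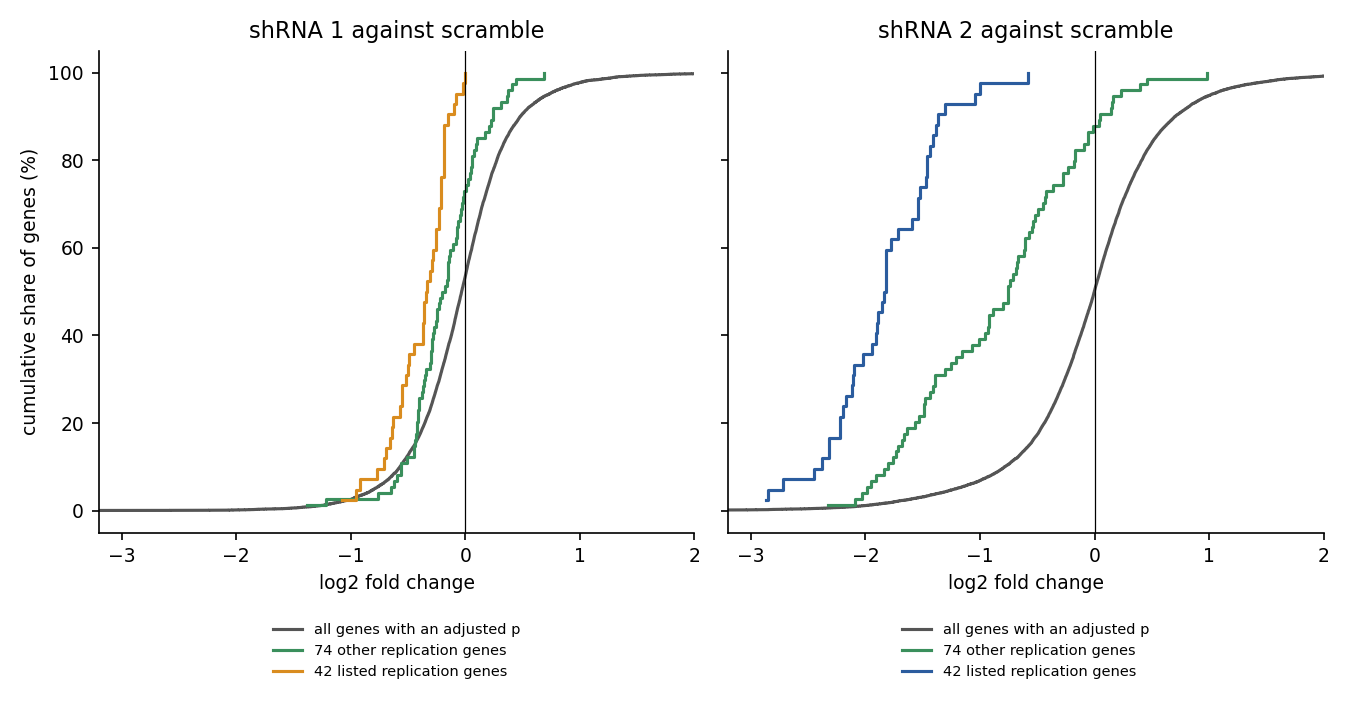
Cumulative share of genes (%) by log2 fold change with shRNA 1 (left) and shRNA 2 (right), for all genes with an adjusted p, 74 other replication genes and the 42 listed genes. With shRNA 2 the curve of the 42 genes lies left of both others, with medians of -1.83, -0.76 and 0.00.

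Helicase loading genes fell with both hairpins, 7 of 8 with shRNA 1 (all genes: 14.8%) and 8 of 8 with shRNA 2 (all genes: 18.1%). The median log2 fold changes were -0.49 with shRNA 1 and -2.09 with shRNA 2 in the authors' deposited tables. CDC6 (chromosome 17, 40287633 to 40304657, GRCh38), the ATPase that brings MCM2-7 to origins, had reconstructed means of 1008 normalised read counts with scramble, 858 with shRNA 1 and 138 with shRNA 2. The mean of CDC6 was lowest with shRNA 2, and those of scramble and shRNA 1 were close. Its log2 fold change of -2.87 ± 0.19 (SE) was the lowest of the 42 with shRNA 2 in the authors' deposited table (DESeq2 adjusted p = 2.41e-50). With shRNA 1 it was -0.23 ± 0.17 (SE), with a DESeq2 adjusted p of 0.361, and CDC6 was the 1 loading gene not called. In the authors' deposited tables CDT1, the partner of CDC6 in loading, was at -0.45 ± 0.16 with shRNA 1 and -2.22 ± 0.17 (SE) with shRNA 2. The shRNA 1 calls of CDT1, and of GINS3, CHAF1B and SLBP described later, were lost when low genes were not filtered out or the values were recentred.

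The 6 subunits of the MCM2-7 ring were called lower with both hairpins, but by unequal amounts with shRNA 2. MCM4 had reconstructed means of 6337, 5051 and 1218 normalised read counts with scramble, shRNA 1 and shRNA 2. MCM6 (chromosome 2, 135839626 to 135876426), whose promoter is shown above, had 3297, 1939 and 734. MCM7 (chromosome 7, 100092728 to 100101940) had 5279, 3675 and 3533, nearly the same level with both hairpins. With shRNA 2 the log2 fold changes were -2.38 for MCM4, -2.17 for MCM6, -2.02 for MCM5, -1.59 for MCM2 and -1.41 for MCM3 in the authors' deposited table. That of MCM7 was -0.58 ± 0.09 (SE), the highest of the 42. Its 95% interval of -0.76 to -0.40 lay apart from that of MCM3, -1.57 to -1.24. With shRNA 1 the order was different: MCM6 was the lowest at -0.77 ± 0.10, then MCM3 at -0.63 ± 0.08, and MCM4 the highest at -0.33 ± 0.11 (SE) by the authors' deposited table. A RefSeq window of MCM7 held 2 E2F matches, at positions -187 and -9 from the start.

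Helicase activation genes fell in 6 of 6 cases with shRNA 2 (all genes: 18.1%), with a median ratio to scramble of 0.25. They fell in 2 of 6 with shRNA 1 (all genes: 14.8%), with a median log2 fold change of -0.28, in the authors' deposited tables. CDC45, the helicase cofactor, had reconstructed means of 731, 462 and 147 normalised read counts with scramble, shRNA 1 and shRNA 2. It was lower with shRNA 1 (-0.66 ± 0.22) and lower still with shRNA 2 (-2.32 ± 0.23, SE) in the authors' deposited tables. MCM10, which joins the helicase to polymerase alpha, had 704, 703 and 163, so that scramble and shRNA 1 stood at the same level. Its ratio to scramble was 0.999 with shRNA 1, with a 95% interval of 0.744 to 1.34, and 0.232 with shRNA 2, with an interval of 0.170 to 0.315, from the authors' deposited tables. GINS2, with 367, 286 and 78.7, was at -2.22 ± 0.25 (SE) with shRNA 2 and GINS3 at -1.90 ± 0.22 (SE) by the authors' deposited table. GINS3 was the other gene of this role called with shRNA 1, at -0.55 ± 0.21 (SE) and a DESeq2 adjusted p of 0.0408. The kinase gene CDC7 and GINS1 were called only in the table of shRNA 2, at -1.86 ± 0.20 and -1.82 ± 0.19 (SE).

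Genes of the polymerases, the clamp and its loader were called lower in 11 of 11 cases with shRNA 2 (all genes: 18.1%). With shRNA 1 they were called lower in 3 of 11 (all genes: 14.8%). The median log2 fold changes were -1.47 with shRNA 2 and -0.23 with shRNA 1 in the authors' deposited tables. PCNA (chromosome 20, 5114953 to 5126626), the sliding clamp, had reconstructed means of 4240, 4187 and 1541 normalised read counts with scramble, shRNA 1 and shRNA 2. Scramble and shRNA 1 stood together, and shRNA 2 was low. Its log2 fold change was -0.02 ± 0.09 (SE) with shRNA 1 (DESeq2 adjusted p = 0.926) and -1.46 ± 0.09 (SE) with shRNA 2 (DESeq2 adjusted p = 2.44e-52) in the authors' deposited tables. The 95% interval of its ratio to scramble with shRNA 1 was 0.872 to 1.12. FEN1, the nuclease that trims Okazaki fragments, had reconstructed means of 2917, 1538 and 825, which fell stepwise from scramble to shRNA 1 to shRNA 2. It had the lowest adjusted p of the 42 with shRNA 1, at -0.92 ± 0.12 (SE, DESeq2 adjusted p = 1.18e-13) in the authors' deposited table.

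The large subunit of polymerase alpha, POLA1, was at -0.69 ± 0.12 and -1.46 ± 0.12 (SE) with shRNA 1 and shRNA 2 in the authors' deposited tables. Its partner POLA2 was at -0.08 ± 0.14 and -1.84 ± 0.15 (SE), and was called with shRNA 2 alone. The reconstructed means of POLA2 were 1328, 1258 and 370 normalised read counts with scramble, shRNA 1 and shRNA 2, against 1672, 1039 and 606 for POLA1. The second identifier under the symbol POLA2 is a readthrough transcript in GENCODE 29 (AP000944.2, chromosome 11, 65261928 to 65326543) that overlaps POLA2. In the authors' deposited tables it had a mean of 54.9, stood at -1.30 ± 2.10 with shRNA 1 and 0.02 ± 2.09 (SE) with shRNA 2, and was called in neither. The tables do not say how reads shared by both identifiers were divided. The clamp loader genes RFC2, RFC3, RFC4 and RFC5 were called with shRNA 2 and not with shRNA 1, as was the primase gene PRIM1. With shRNA 2, RFC5 was the least changed of this role, at -1.04 ± 0.20 (SE), and RFC3 was at -1.72 ± 0.21 (SE) by the authors' deposited table. DSCC1, of an alternative clamp loader, was called with both, at -0.57 ± 0.19 and -1.82 ± 0.20 (SE). POLE2, the second subunit of polymerase epsilon, had the lowest mean of the 42, 42.8 normalised read counts, and was at -0.19 ± 0.63 and -2.12 ± 0.66 (SE, DESeq2 adjusted p = 0.00698 with shRNA 2) in the authors' deposited tables.

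All 4 nucleotide supply genes were called lower with shRNA 2 (all genes: 18.1%) and 2 of 4 with shRNA 1 (all genes: 14.8%). The median log2 fold changes were -1.72 with shRNA 2 and -0.35 with shRNA 1 in the authors' deposited tables. RRM2 (chromosome 2, 10120698 to 10131419), the regulated subunit of ribonucleotide reductase, had reconstructed means of 11455, 5413.5 and 1739.5 normalised read counts with scramble, shRNA 1 and shRNA 2. The levels fell stepwise across the 3 groups. Its log2 fold changes were -1.08 ± 0.23 and -2.72 ± 0.23 (SE) by the authors' deposited tables, and it was the 1 gene of the 42 at or below 0.5 times scramble with shRNA 1. RRM1, the large subunit, was at -0.19 ± 0.11 (SE, not called) and -1.54 ± 0.11 (SE) by the authors' deposited tables. Thymidylate synthase (TYMS) was at -0.50 ± 0.12 and -1.52 ± 0.12, and thymidine kinase (TK1) at -0.15 ± 0.30 (not called) and -1.89 ± 0.30 (SE).

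The cyclin genes fell in 3 of 3 cases with shRNA 2 (all genes: 18.1%). They were at -1.94 ± 0.31 for CCNA2, -1.91 ± 0.37 for CCNE2 and -1.78 ± 0.18 for CCNE1 (SE) by the authors' deposited table. These cyclins activate CDK2 at the entry to and during S phase. With shRNA 1 CCNE1 alone was called lower (all genes: 14.8%), at -0.71 ± 0.17 (SE). CCNE2 and CCNA2 were at -0.26 ± 0.35 and -0.28 ± 0.31 (SE) with shRNA 1 by the authors' deposited table. CCNE1 had reconstructed means of 735, 450 and 214 normalised read counts with scramble, shRNA 1 and shRNA 2. For CCNE2 they were 136, 113 and 36.1.

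Genes of chromatin and histone supply were called lower in 6 of 6 cases with shRNA 2 (all genes: 18.1%). With shRNA 1 the count was 3 of 6 (all genes: 14.8%). The medians were -1.68 with shRNA 2 and -0.33 with shRNA 1 in the authors' deposited tables. CHAF1B (chromosome 21, 36385378 to 36419015), a subunit of the CAF-1 histone chaperone that places histones on new DNA, had reconstructed means of 1365, 1060 and 189 normalised read counts with scramble, shRNA 1 and shRNA 2. The shRNA 2 mean was far below both others. Its log2 fold changes were -0.37 ± 0.14 and -2.85 ± 0.16 (SE) by the authors' deposited tables. UHRF1, which guides DNA methylation to new strands, was at -0.49 ± 0.16 and -2.32 ± 0.16 (SE). SLBP, the protein that binds histone mRNA, was called with both and was the least changed of this role with shRNA 2, at -0.29 ± 0.11 (SE) with shRNA 1 and at a ratio of 0.498 (95% interval 0.431 to 0.576) with shRNA 2. The chromatin ATPase genes HELLS and ATAD2, and CHAF1A, were called with shRNA 2 alone.

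Genes of the fork checkpoint and repair were called lower in 4 of 4 cases with shRNA 2 (all genes: 18.1%). With shRNA 1 the count was 2 of 4 (all genes: 14.8%). The medians were -2.15 with shRNA 2 and -0.49 with shRNA 1 in the authors' deposited tables. DTL, the substrate receptor of the ligase that destroys CDT1 in S phase, had reconstructed means of 1952, 1007 and 356 normalised read counts with scramble, shRNA 1 and shRNA 2. It was at -0.95 ± 0.16 and -2.45 ± 0.16 (SE) by the authors' deposited tables, low with both hairpins. CLSPN, the claspin adaptor of the checkpoint kinase CHEK1, was at -0.34 ± 0.15 (SE, DESeq2 adjusted p = 0.0884) and -2.20 ± 0.16 (SE). The exonuclease EXO1 was at -0.64 ± 0.15 and -2.10 ± 0.16 (SE). UNG, which removes uracil from DNA, was at -0.21 ± 0.11 (not called) and -1.38 ± 0.12 (SE).

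**Figure D3:**
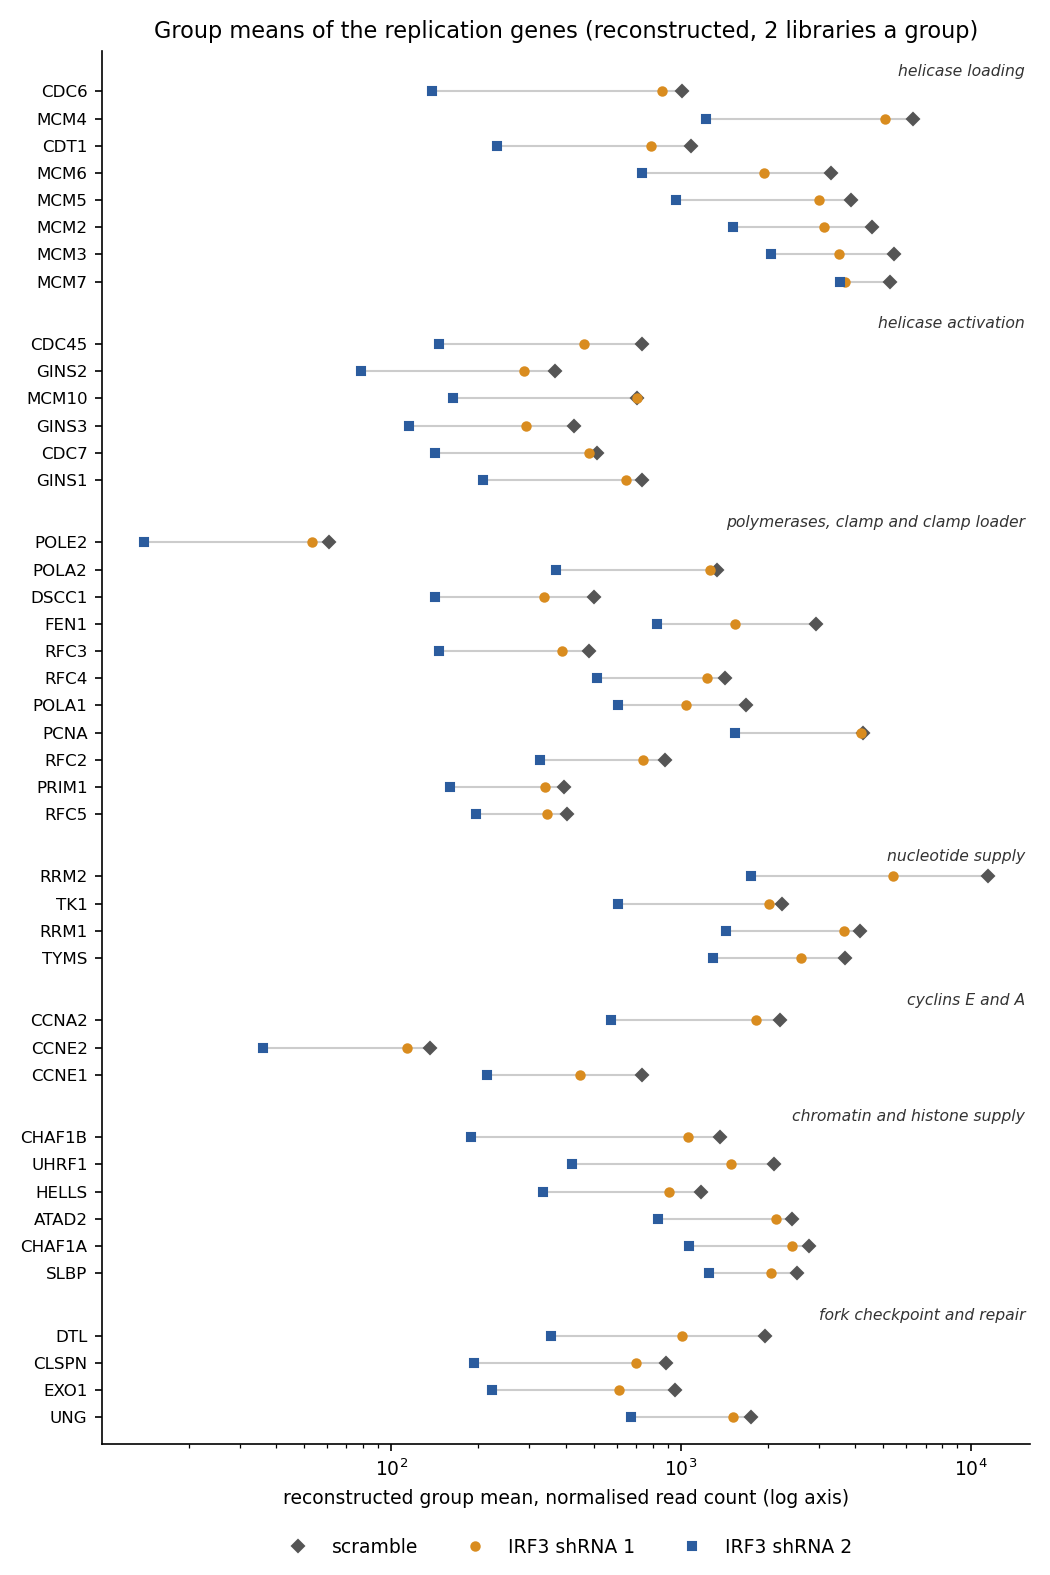
Reconstructed group means of the 42 genes in normalised read counts (log axis) for scramble (diamonds), shRNA 1 (circles) and shRNA 2 (squares), each from 2 libraries and without error bars, since no library value is in the tables. The square is the lowest of the 3 for every gene, and for MCM7 it nearly meets the circle, at 3533 and 3675.

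The hairpins differed from each other for 40 of the 42 genes, all lower with shRNA 2. The difference of the 2 log2 fold changes was put to a z test, two-sided, using the authors' deposited values, with Benjamini-Hochberg adjustment over 14488 genes, of which 13.8% were called lower with shRNA 2. The root of the summed squared SEs serves as its SE and is too large, because the scramble libraries cancel in the difference. Over the 42 genes the median difference was -1.45, from -2.64 to -0.06. CDC6 differed by -2.64 ± 0.25 (SE, adjusted p = 2.89e-23 by the z test across all genes on the authors' deposited values), CHAF1B by -2.49 ± 0.21 and MCM4 by -2.05 ± 0.15 (SE). PCNA differed by -1.44 ± 0.13 and MCM6 by -1.40 ± 0.14 (SE). The smallest called differences were those of SLBP, -0.71 ± 0.15, and MCM3, -0.77 ± 0.12 (SE). MCM7 was not called, with a difference of -0.06 ± 0.13 (SE) and a 95% interval of -0.32 to 0.20. POLE2 was not called either, at -1.93 ± 0.92 (SE), which at its low level leaves an interval of -3.73 to -0.13. IRF3 itself differed in the opposite direction, by 1.35 ± 0.15 (SE), being lower with shRNA 1.

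**Figure D4:**
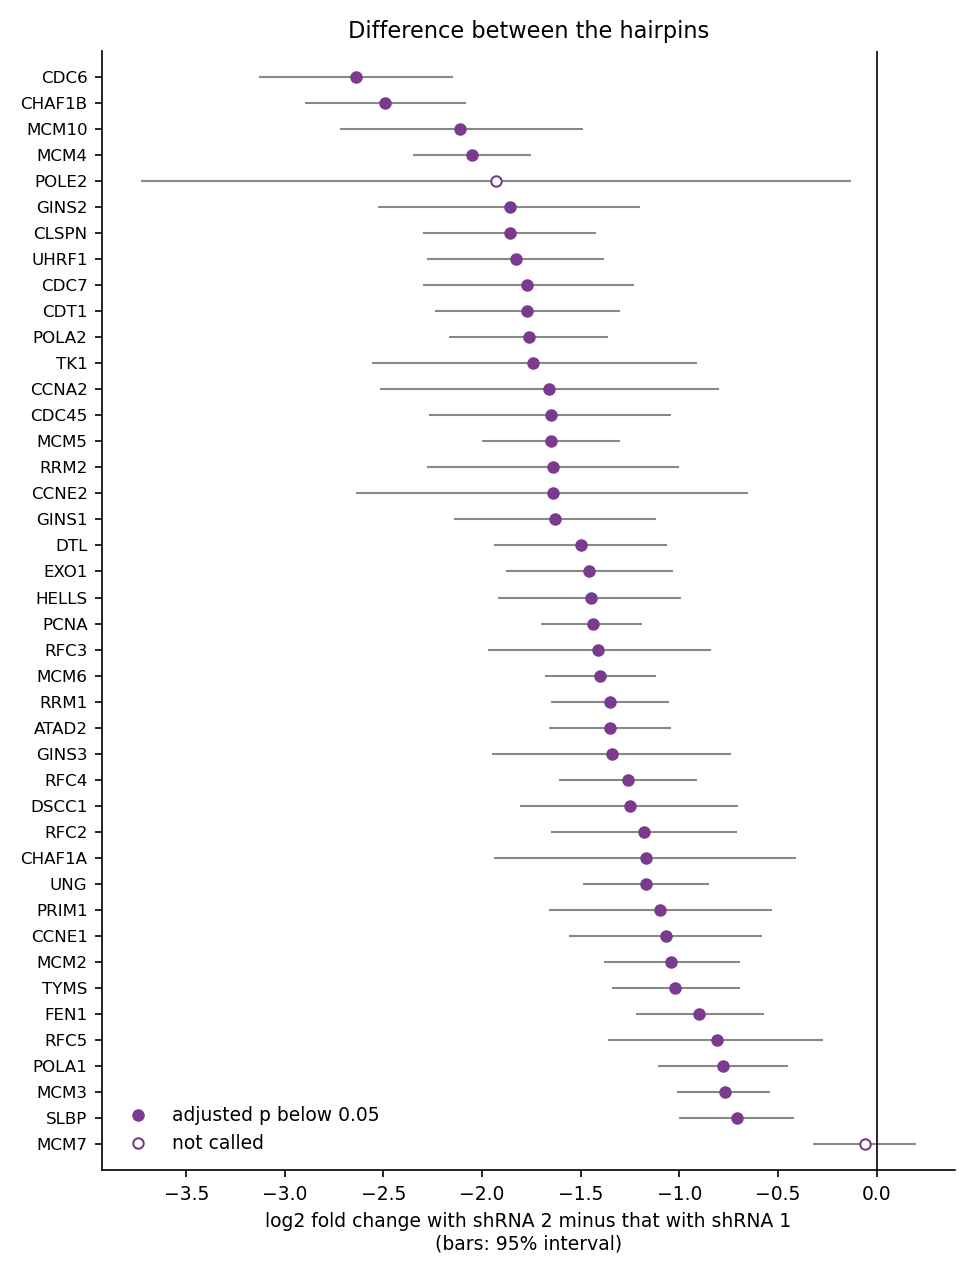
Log2 fold change with shRNA 2 minus that with shRNA 1 for each of the 42 genes, with 95% intervals, ordered by size; filled points passed an adjusted p below 0.05. The points run from -2.64 (CDC6) to -0.06 (MCM7), and the open points are MCM7 and POLE2.

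Some of these genes had a larger SE than other genes of like abundance. For RRM2, TK1, CCNA2 and CHAF1A the SE with shRNA 2 was 2.78, 2.65, 2.77 and 2.68 times the median SE of the 200 genes nearest in mean, from the authors' deposited table. For the other 38 genes it was below 1.5 times. Outside the group, TOP2A and MKI67, genes of proliferating cells, had ratios of 2.66 and 3.34. Other genes outside the group did not: E2F1 had 1.15, CDC25A 1.25, ORC1 1.06 and CHEK1 1.13. TK1, CCNA2 and CHAF1A were not called with shRNA 1, where their SEs were 0.30, 0.31 and 0.28 in the authors' deposited table. Which libraries carry the spread cannot be seen in the tables. MKI67 was at -0.56 ± 0.27 (SE, not called) and -2.33 ± 0.27 (SE), and E2F1 at -1.04 ± 0.13 and -2.48 ± 0.14 (SE) by the authors' deposited tables.

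The 74 other replication genes span origins, polymerases, nucleotide supply, chromatin and fork stability. Of these 74, 56 were called lower and 3 higher with shRNA 2, with a median log2 fold change of -0.76. With shRNA 1, 20 of the 74 were called lower and 4 higher, with a median of -0.19, in the authors' deposited tables. The 11 of nucleotide supply include TYMP, GART, CMPK1 and SAMHD1. With shRNA 2 their median was -0.43, and 6 were called lower and 1 higher. Of all genes with an adjusted p, 18.1% were called lower and 10.9% higher with shRNA 2. The shares with shRNA 1 were 14.8% and 9.8%. The lowest with shRNA 2 were the phosphatase gene CDC25A at -2.33 ± 0.20, the origin subunit ORC1 at -2.09 ± 0.18 and CHEK1 at -2.03 ± 0.15 (SE). The highest were the nucleoside phosphorylase TYMP at 0.98 ± 0.25, CABIN1 at 0.46 ± 0.09 and POLD4 at 0.40 ± 0.11 (SE) by the authors' deposited table. With shRNA 1 the lowest were SSRP1 at -1.38 ± 0.10, of the histone chaperone FACT, the helicase MCM8 at -1.22 ± 0.13 and the histone chaperone NASP at -0.76 ± 0.10 (SE). The highest with shRNA 1 were RNASEH2C at 0.69 ± 0.11, CHTF8 at 0.44 ± 0.09 and POLE4 at 0.41 ± 0.18 (SE), of which POLE4 was not called, in the authors' deposited table. SSRP1 was less low with shRNA 2, at -0.68 ± 0.10 (SE), opposite in order to the 42 genes.

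Seen by complex, subunits differed with shRNA 2. Of the origin recognition complex, ORC1 and ORC6 were called lower, at -2.09 and -1.31, whereas ORC2, ORC3, ORC4 and ORC5 were at 0.05, -0.18, -0.06 and -0.01 and were not called in the authors' deposited table. All 4 GINS genes and all 4 genes of polymerase alpha and primase were called lower. Of polymerase delta, POLD1, POLD2 and POLD3 were called lower and POLD4 higher. In ribonucleotide reductase, RRM2 was at -2.72, while RRM2B, the p53-induced alternative subunit, was at 0.23 ± 0.19 (SE, not called) in the authors' deposited table. RFC1, the large subunit of the clamp loader, was at -0.57 ± 0.11, above the -1.72 to -1.04 of RFC2 to RFC5. RBBP4, the CAF-1 subunit shared with other chromatin complexes, was at -0.45 ± 0.08, against -2.85 for CHAF1B and -1.37 for CHAF1A. The complexes were chosen after the values of their genes were seen.

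**Figure D5:**
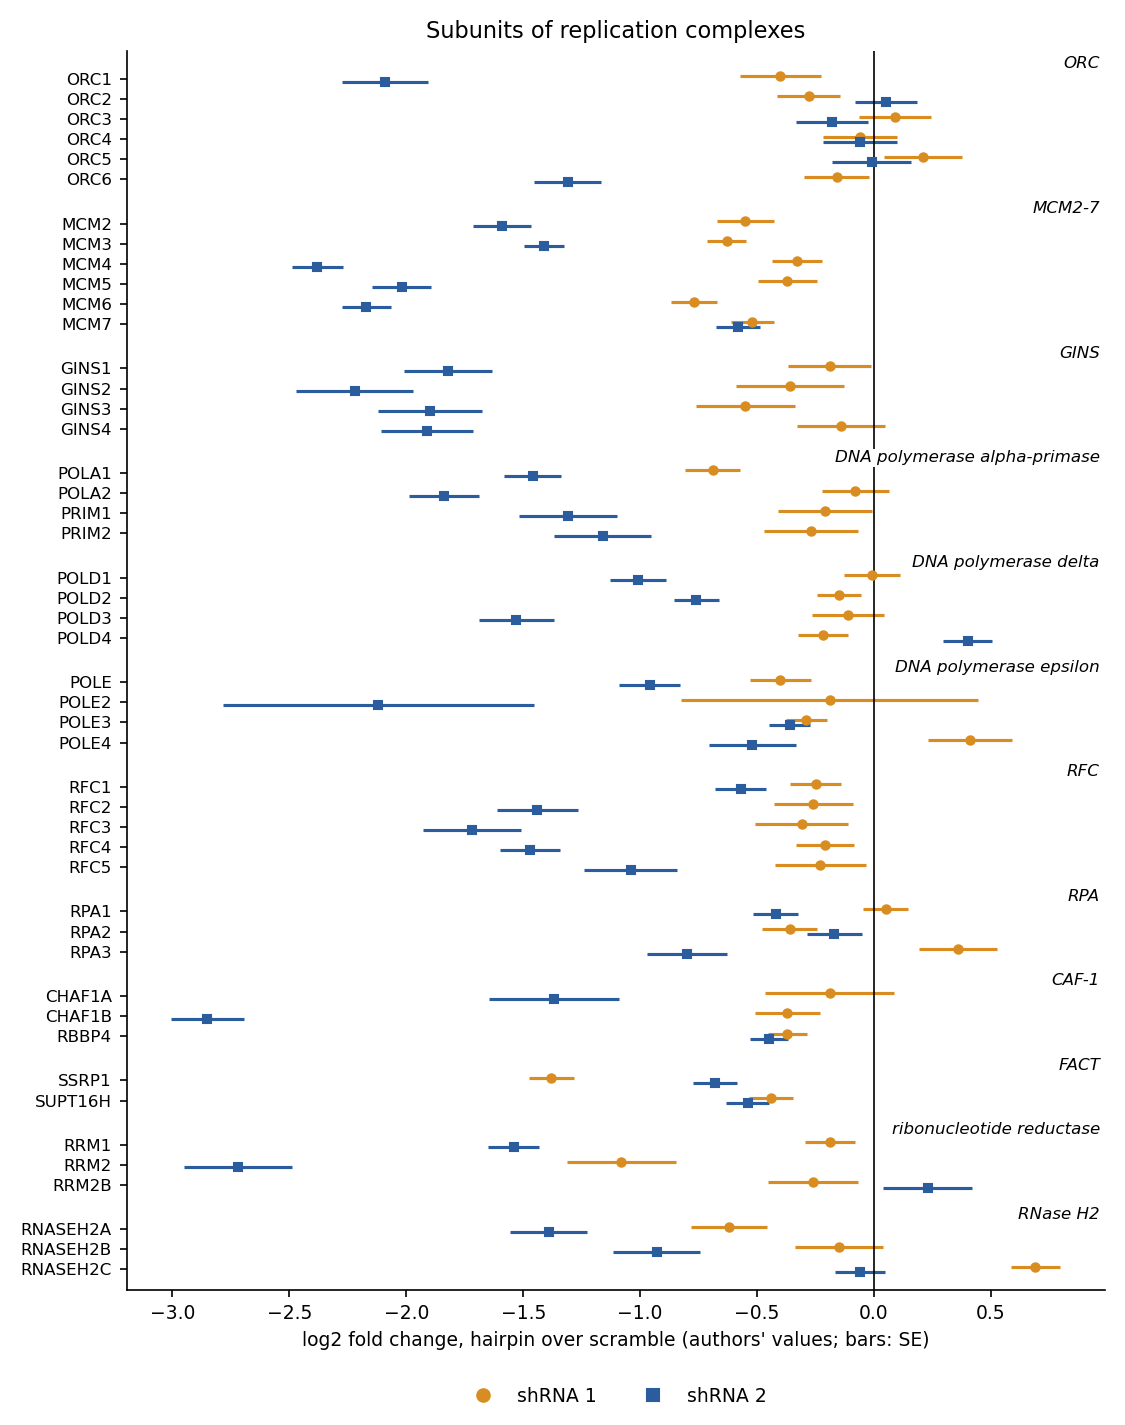
Log2 fold change against scramble of subunits of 12 replication complexes with shRNA 1 (circles) and shRNA 2 (squares), in the authors' deposited tables; bars are SE. With shRNA 2, ORC1 (-2.09) and ORC6 (-1.31) stand apart from ORC2 to ORC5, and RRM2 (-2.72) from RRM2B (0.23).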

How the data were processed

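mRNA levels came from sequencing 6 poly(A)-selected libraries, grouped by the hairpin in the labels. The submitters' processing notes name Salmon 0.12.0, DESeq2 1.24.0 and GRCh38 (hg38). Settings, strand and annotation: not given in the sources used here. The 2 tables that the authors deposited hold, per the file headers, a mean signal in normalised read counts, the log2 fold change and its SE, a Wald score, and p-values and adjusted p-values. Each of the 33095 genes has the same mean in both tables. Calls are those of the authors' DESeq2 test across all genes. All identifiers occur in GENCODE 29 (GRCh38), the source of coordinates. Group means assume 2 libraries a group and no change of the mean by fitting; the dispersions that both tables give for a member then differed by at most 3.8%. The coding as hairpin over scramble was checked on 643 genes, by how far the dispersions from both tables lay apart: the median absolute log ratio was 0.00408 in the coding used, 0.0939 and 0.0855 with 1 table turned and 0.0321 with both turned. The difference test was run on simulated data with the same dispersion for every gene and no effect of shRNA 1. The dispersions of the members differ from gene to gene, so the simulation does not show how the test performs on them. Values were computed with Python 3.11.15 and scipy 1.17.1. The depth per library is unknown. Members, lists and complexes were chosen with earlier results of these data known. Every member is named; values are given for the 2 lowest and the highest of each role with shRNA 2, the 5 with the lowest adjusted p with shRNA 1, and the 3 lowest and 3 highest other replication genes of each table, and further members were added where a comparison needed them. Alternatives covered the threshold, a fold minimum, the filter on low genes, the centring and the SE of the difference.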

Additional observations from a re-analysis of the deposited data

Results flagged for a closer look

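The effects of the 2 hairpins against scramble differed, in a two-sided z test of the difference on the authors' deposited values, for 40 of the 42 genes. The 5 members with the lowest p differed, as log2 fold change with shRNA 2 minus that with shRNA 1, by -2.05 (MCM4), -2.49 (CHAF1B), -1.44 (PCNA), -2.64 (CDC6) and -1.40 (MCM6). IRF3 differed by 1.35 in the other direction.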

How the results depend on the processing

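All 42 genes kept the call as lower with shRNA 2 at adjusted p thresholds of 0.01 and 0.1, with a log2 fold minimum of 0.5, without the filter on low genes and after recentring on the median gene. Under these settings 8.48% to 20.7% of all genes were called lower. With only genes of a mean of 50 or more, POLE2 was not tested and the other 41 were called, against 24.0% of all 12977 genes. With shRNA 1 the count of 20 became 11 at an adjusted p below 0.01 (all genes: 14.8% to 10.8%). It ranged from 14 to 22 under the other alternatives, where the share of all genes ran from 5.44% to 17.8%. CDT1, GINS3, CHAF1B and SLBP lost the shRNA 1 call on recentring, and also when low genes were kept. Recentring turned the uncalled values of MCM10 and PCNA with shRNA 1 to 0.04 and 0.02. The count of other replication genes lower with shRNA 1, 20 of 74, became 8 of 74 with the fold minimum of 0.5. The share of all 14488 genes called lower went from 14.8% to 8.95%. The 40 genes lower with shRNA 2 than with shRNA 1 became 38 at an adjusted p below 0.01, where the share of all genes went from 13.8% to 10.0%. They became 41 with the SE of the hairpin groups alone, under which POLE2 passed (adjusted p = 0.0131) and the share of all genes called lower was 21.4%. Counting the second POLA2 identifier, an alternative chosen after seeing the data, added no call. Members with a mean of 1000 or more had a median of -1.54 with shRNA 2. No library could be left out in turn, since the tables used here give no value of a single library. No paired analysis was possible because the columns are comparisons and carry no replicate.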

Other observations

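Per kilobase of annotated exon in GENCODE 29, the reconstructed scramble level of the 42 genes, in normalised read counts, was highest for PCNA (2882), RRM2 (2152), TYMS (1495) and MCM3 (1491), and lowest for POLE2 (20.6) and CCNE2 (30.9). The order follows the union of exons of each gene, while Salmon divides reads among transcripts, so it is a description of scale only. Members of 1 complex differed in this level, from 529 for MCM5 to 1491 for MCM3 among the MCM2-7 genes.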
